A study of Mus musculus with 3 samples.

Results

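The cells described here are those that the deposited annotation gives a Cd4 identity and the class Cd4 (the Cd4 class), compared between hashtag samples 2 and 1. They were found by the annotation's identity and class columns, and another column numbers each cell's hashtag from 1 to 4. The Cd4 class held 2477 of 5564 cells: 1137 in hashtag sample 1, 755 in hashtag sample 2, 202 in hashtag sample 3 and 383 in hashtag sample 4. These were 71.2%, 43.5%, 18.1% and 34.4% of the cells of each number.

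All cells came from B16F10 tumors, a transplantable mouse melanoma line implanted under the skin in matrigel. At 1 day after implantation the mice were given purified T cells through the tail vein, either CD45.1 CD4 cells or CD45.2 CD8 cells (CD45.1 and CD45.2 are forms of a surface protein that tell donors apart), and tumors were resected on day 11. The labels give no other treatment. From 10 pooled mice, 4 populations were sorted (CD4 alone or with CD8 from the CD45.1 donor cells, CD8 alone or with CD4 from the CD45.2 donor cells), each was hashtagged, and about equal numbers were pooled into 1 library of the 5′ ends of transcripts. The labels list the populations and the congenic markers in orders that do not match, so hashtags 1 and 2 are kept as numbers. What differs between them in sort, origin and handling cannot be told apart.

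There was 1 pool and 1 library, and cells of 1 hashtag are not replicates. No test was therefore made, and every interval below is an exact 95% interval for counting error only. Levels are CPM, the UMIs of a gene summed over the cells of a hashtag and scaled to the same total, where each UMI stands for 1 captured RNA molecule. Such a sum does not tell more cells with a UMI from more UMIs per cell. The sums held 5368952 UMIs in hashtag sample 1 and 2890961 in hashtag sample 2, with medians of 3647 and 3325 UMIs per cell. Cd3d, Cd3e or Cd3g UMIs, which mark T cells, were present in all but 5 cells of hashtag sample 1 and 9 of hashtag sample 2. Cd4 UMIs were found in 66.1% and 62.1% of cells, against 3 of 120 cells of the library (2.5%) that held myeloid genes and no Cd3 UMI. The sources used here do not say how the class was called, so levels of Cd4 and Cd8a may be set by it.

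CD4 T cells recognise peptides on MHC class II molecules and act in tumors as helper cells, as cytotoxic cells or as regulatory T cells. Regulatory T cells depend on the transcription factor Foxp3 and restrain other T cells, while helper cells are sorted into types by the cytokines they make, among them the type 17 cells that make interleukin 17. MHC class II molecules themselves, and the invariant chain Cd74 that binds them, belong mainly to myeloid cells, dendritic cells and B cells.

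Tmem176b, called higher in hashtag sample 2, and its neighbour Tmem176a, which lay just under the limit for a call, encode membrane channel proteins found in type 17 lymphocytes and in myeloid cells. In RefSeq (GRCm38.p6) they lie on chromosome 6, with Tmem176a at 48841483 to 48845364 and Tmem176b at 48833811 to 48845948 on the other strand. Reads could be shared where they overlap, since the sources used here do not say whether counting used strand. Their promoter windows (250 bases before to 50 after a start) are shown because the levels of both genes were higher in hashtag sample 2 and the windows share 155 bases. The shared bases are in capitals, on opposite strands, for Tmem176a at chr6:48841233-48841532 (plus strand) and for Tmem176b at chr6:48841088-48841387 (minus strand), 1 of several windows listed for each gene.
Tmem176a: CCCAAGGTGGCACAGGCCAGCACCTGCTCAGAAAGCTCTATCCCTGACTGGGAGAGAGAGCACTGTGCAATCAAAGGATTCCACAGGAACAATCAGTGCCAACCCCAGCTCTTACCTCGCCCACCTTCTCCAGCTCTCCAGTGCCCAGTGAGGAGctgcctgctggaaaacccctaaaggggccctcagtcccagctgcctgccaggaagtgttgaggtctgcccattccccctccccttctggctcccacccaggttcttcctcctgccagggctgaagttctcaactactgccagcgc
Tmem176b: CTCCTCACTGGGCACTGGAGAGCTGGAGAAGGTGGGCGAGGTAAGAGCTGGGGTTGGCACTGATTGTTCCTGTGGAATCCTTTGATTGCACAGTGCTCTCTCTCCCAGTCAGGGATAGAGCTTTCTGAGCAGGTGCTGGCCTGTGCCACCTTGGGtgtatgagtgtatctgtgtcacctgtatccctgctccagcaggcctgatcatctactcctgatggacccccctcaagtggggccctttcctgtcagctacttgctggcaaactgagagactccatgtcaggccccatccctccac
Motifs were searched on both strands of these windows. The AP-1 site TGANTCA and the TATA element TATAAA had no match in either window, and they were present in 7.81% and 13.6% of all 32851 promoter windows. The E-box CACCTG had 1 match in the Tmem176a window and 2 in the Tmem176b window, and 1 of these lies in the shared bases and is the same site in both. A match was present in 3 of the 5 windows listed for the 2 genes and in 20.2% of all windows.

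Of 8722 genes with at least 50 UMIs over both hashtags, 366 (4.2%) were called lower and 77 (0.883%) higher in hashtag sample 2. A call needed a fold of at least 1.5 and an interval that left out 1, and is a rule of size. The median log2 ratio over all measured genes was -0.00, so the sums were level between hashtags. The lower genes included MHC class II and myeloid genes, chemokines, and genes of mitosis, regulatory T cells and inhibitory receptors. The higher genes included Mmp25, Tmem176b, Orai2, Il17re, Thada and Cd7.

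**Figure D1:**
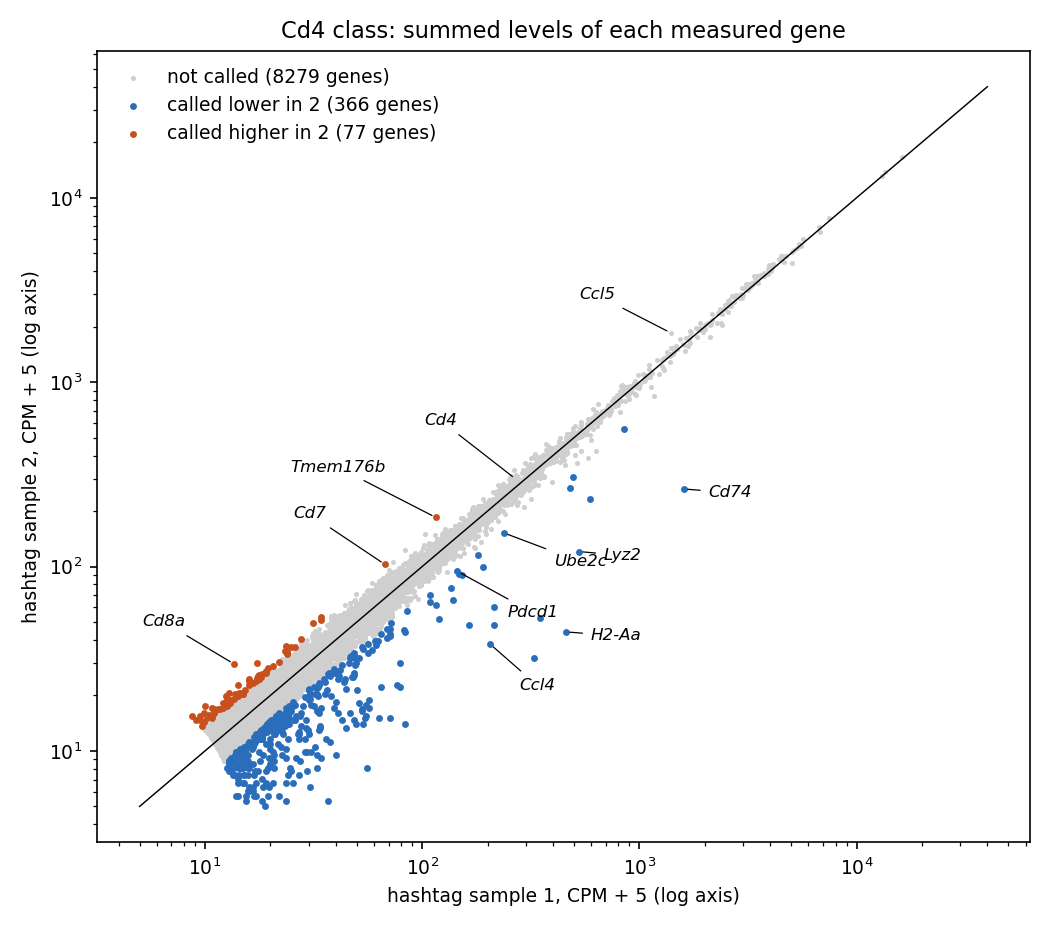
Level of each of the 8722 measured genes in the Cd4 class of hashtag sample 1 (horizontal, CPM + 5, log axis) and hashtag sample 2 (vertical), 1 point a gene, with the line of equal levels. The 366 genes called lower in hashtag sample 2 (blue) reach farther from the line than the 77 called higher (orange), and of the labelled genes H2-Aa, Cd74 and Ccl4 lie farthest below it (log2 -3.37, -2.60 and -2.44).

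Myeloid and MHC class II genes were called lower in hashtag sample 2. H2-Aa, a chain of MHC class II, was at 453 CPM in hashtag sample 1, 39.2 in 2, 194 in 3 and 413 in 4. It was 11.5-fold lower in hashtag sample 2 than in 1 (9.56 to 14.1). Cd74 stood at 1592, 259, 713 and 1440 CPM (6.16-fold lower in 2, 5.71 to 6.64), and Lyz2, the lysozyme of macrophages, at 522, 116, 4.98 and 216 CPM (4.51-fold lower, 4.03 to 5.07). For H2-Aa and Cd74 hashtag samples 1 and 4 were high and hashtag sample 2 was the lowest of the 4, and for Lyz2 hashtag sample 3 was the lowest. Of the macrophage or monocyte list, 9 of 10 measured members were called lower (median log2 -1.77), and of the MHC class II and dendritic cell list 8 of 8 (median -2.18).

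Cells with UMIs of 3 or more of 13 such genes, here called myeloid-gene cells, made up 61 of 1137 cells in hashtag sample 1 (5.37%, 4.13 to 6.84) and 12 of 755 in hashtag sample 2 (1.59%, 0.824 to 2.76). The rule for them was set after the values were seen. They were 3 of 202 cells in hashtag sample 3 and 13 of 383 in hashtag sample 4. Cd3 UMIs were present in 60 of the 61 and 10 of the 12, and their median depth was 11626 and 9568 UMIs, against 3584 and 3321 in the other cells of the class. UMIs of 2 Trbv genes (the V genes of the receptor's beta chain), a sign of doublets, were found in 9 of the 61 and none of the 12, and in 10.6% and 6.49% of all cells of the class in hashtag samples 1 and 2. They carried 87.7% of the UMIs of both lists in hashtag sample 1 and 51.3% in hashtag sample 2. H2-Aa, H2-Eb1 and Tyrobp are among the genes that define these cells, so leaving the cells out lowers their levels by construction. Without them the log2 ratio of H2-Aa went from -3.37 to -0.08, that of H2-Eb1 from -3.36 to 0.41 and that of Tyrobp, a signaling adaptor of myeloid and NK cells, from -2.15 to 0.21. Cd74 went from -2.60 to -0.93 and was still called lower.

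The counts of called genes moved with these cells. Without them 205 of 8391 genes (2.44%) were called lower and 81 (0.965%) higher, and 137 of the lower and 50 of the higher genes were among those called in all cells. When cycling cells (defined below) were left out as well, 105 of 7655 genes (1.37%) were lower and 68 (0.888%) higher. Values without these cells are given below where they bear on a call, and the part of these cells in the results was not tested in any other way.

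**Figure D2:**
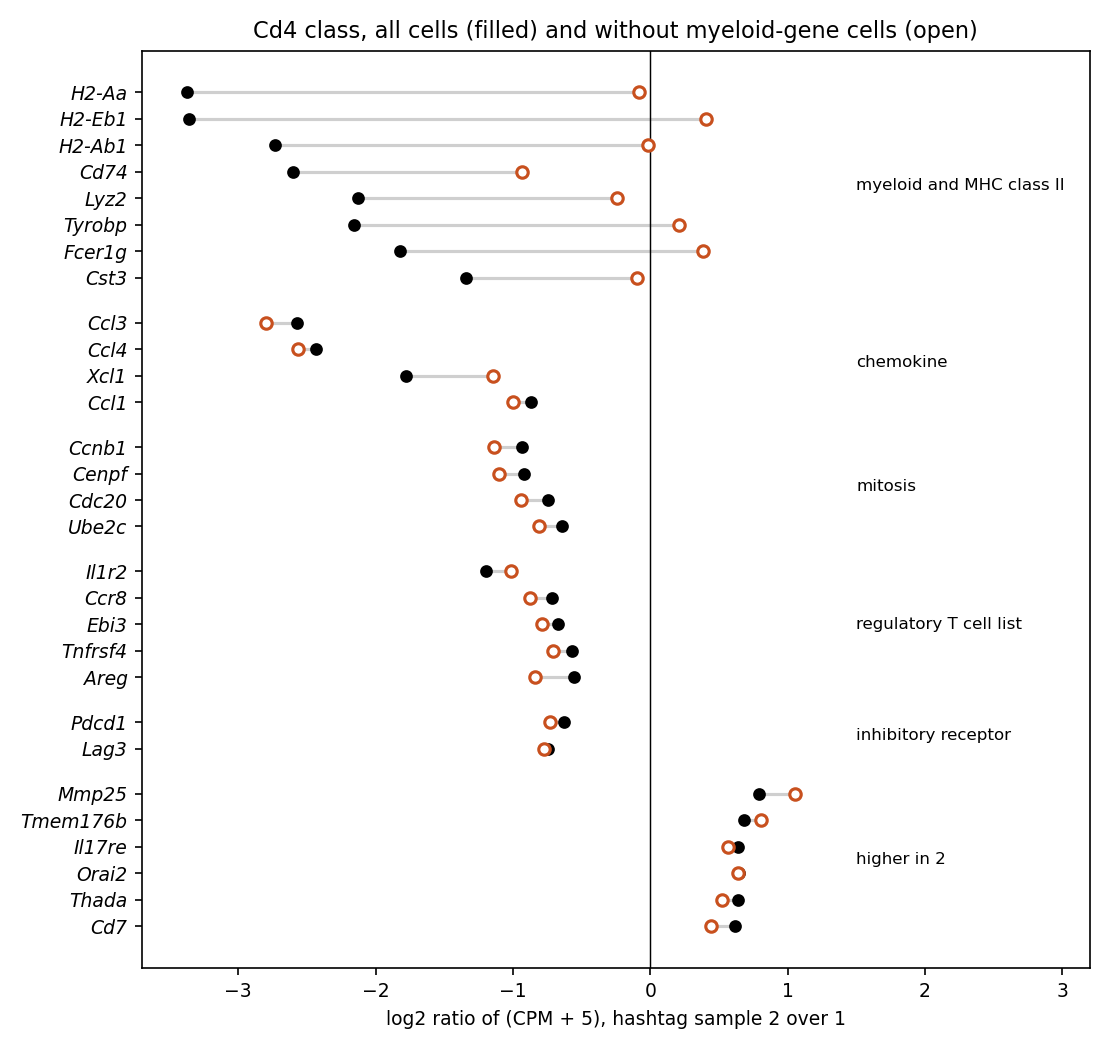
Log2 ratio of hashtag sample 2 over 1 (horizontal axis) for 29 named genes of the Cd4 class, grouped by function, in all cells (filled black) and without myeloid-gene cells (open orange). The H2 genes, Lyz2, Tyrobp, Fcer1g and Cst3 lie between -0.24 and 0.41 without those cells, whereas the genes drawn for the chemokine, mitosis, regulatory T cell, inhibitory receptor and higher groups keep their side of 0.

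Genes of the mixed Th2, Th17 and Tfh list leaned higher in hashtag sample 2. The list does not single out type 17 cells. Of the 11 measured members of the Th2, Th17 and Tfh list, 2 were called higher, where 0.883% of all genes were, and 0 were called lower. No member had a log2 ratio below 0, and the median was 0.31 beside -0.00 for all genes. Tmem176b stood at 110, 180, 116 and 152 CPM in hashtag samples 1 to 4, 1.63-fold higher in 2 than in 1 (1.44 to 1.84). Tmem176a stood at 78.3, 117, 82.2 and 105 CPM, a fold of 1.5 (1.29 to 1.73) that lay just under the limit for a call, and was called without myeloid-gene cells (log2 0.69). Hashtag sample 2 was the highest of the 4 for both genes, with hashtag sample 4 next. Il17re, a chain of the receptor for interleukin 17C, stood at 18.7, 31.9, 19.9 and 22.9 CPM (1.71-fold, 1.27 to 2.29). Ccr4, a chemokine receptor of type 2 and regulatory T cells, stood at 53.8 and 76.7 CPM (1.43-fold, 1.19 to 1.70), and Maf, a transcription factor of helper cells, at 214 and 226 CPM (1.06-fold, 0.957 to 1.16).

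The difference in Tmem176b was also seen as a share of cells. Tmem176b UMIs were found in 19.1% of cells in hashtag sample 1 (16.8 to 21.5) and 23.0% in hashtag sample 2 (20.1 to 26.2). With each cell thinned to 2000 UMIs, which kept 1055 and 670 cells, the shares were 12.6% (10.7 to 14.8) and 18.4% (15.5 to 21.5). In the Cd8 class, thinned the same way, they were 6.82% and 2.46%. The thinned shares for Il17re were 3.51% (2.48 to 4.80) and 6.57% (4.81 to 8.72), and 0 of the 112 thinned cells with myeloid genes and no Cd3 UMI had one, which allows up to 2.68%. Of those 112 cells, 17.0% had a Tmem176b UMI. The log2 ratio of Tmem176b was 0.68 in all cells and 0.80 without myeloid-gene cells. Without cycling cells the ratio was 0.55, which ended the call (0.905% of 7957 genes were called higher there and 3.25% lower).

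These transcripts tended to share cells. In hashtag sample 1, Tmem176a UMIs were found in 134 of 217 cells with a Tmem176b UMI (61.8%) and in 6.09% of the 920 cells without one. In hashtag sample 2 the shares were 111 of 174 (63.8%) and 5.85%. Il17re UMIs were found in 20.3% and 25.9% of Tmem176b cells of hashtag samples 1 and 2, against 4.02% and 4.82% of the other cells. Median depths of cells with and without Tmem176b were 3873 and 3602 UMIs in hashtag sample 1 and 3472.5 and 3258 in hashtag sample 2. Foxp3 UMIs went the other way, at 14.7% of Tmem176b cells against 26.5% of others in hashtag sample 1 and 6.90% against 22.2% in hashtag sample 2. Among cells with a Foxp3 UMI alone, Tmem176b was called lower in hashtag sample 2 (log2 -0.70, where 4.66% of 4826 genes were called lower and 2.26% higher), and among cells without one it was called higher (log2 0.81, where 1.18% of 8170 genes were called higher and 3.54% lower). That opposite direction rested on 32 and 12 cells with both UMIs.

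Several other genes were higher. Mmp25, a membrane-bound metalloproteinase, stood at 12.3, 25.0, 11.2 and 13.2 CPM in hashtag samples 1 to 4 (2.03-fold higher in 2 than in 1, 1.43 to 2.87), so hashtag sample 2 was the highest of the 4. Orai2, a calcium channel subunit, stood at 26.5, 44.4, 46.1 and 31.3 CPM (1.67-fold, 1.31 to 2.14). Thada stood at 29.1 and 48.2 CPM (1.66-fold, 1.31 to 2.09), and Cd7, a surface protein of T and NK cells, at 62.2 and 97.9 CPM (1.57-fold, 1.34 to 1.85). Cd7 was higher still in hashtag sample 3, at 118 CPM, and its log2 ratio went from 0.61 to 0.44 without myeloid-gene cells, which ended the call. Fbxw5, Atg4a, Prkaa1, Eif2ak3, Gpr25 and Apol7e were called higher at folds of 1.59 to 1.64 and were also called without myeloid-gene cells. Plekhf1 (1.57-fold) and Lncpint (1.56-fold) were not called without them.

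**Figure D3:**
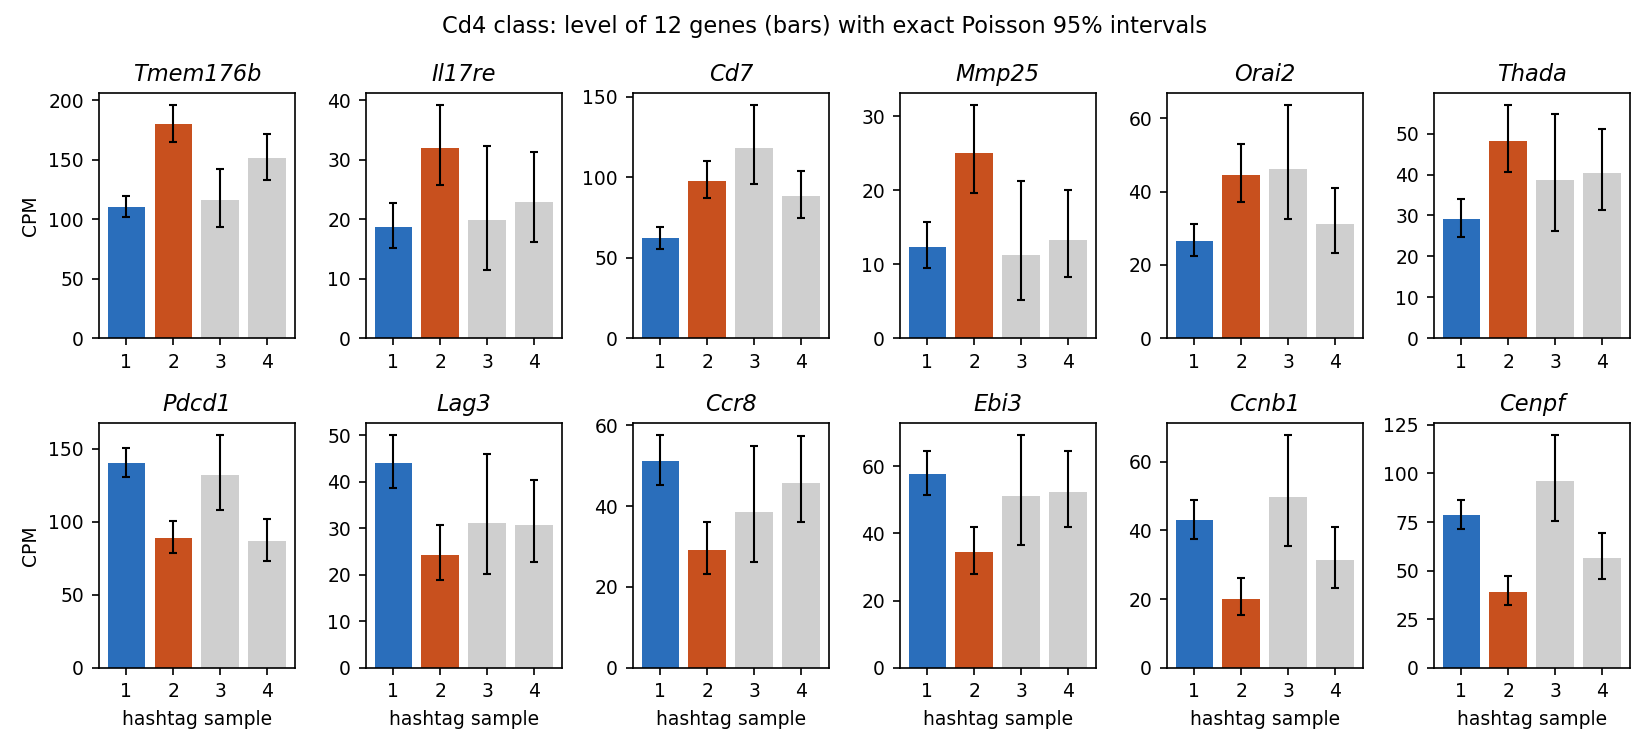
Level (CPM, bars) of 12 genes in the Cd4 class of hashtag samples 1 (blue), 2 (orange), 3 and 4 (grey), with exact Poisson 95% intervals. In the top row the genes are higher in hashtag sample 2 than in 1 and in the bottom row lower, and hashtag samples 3 and 4 lie near one or the other depending on the gene (Pdcd1 at 132 and 86.6 CPM).

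Of the 9 measured members of the CD4 lineage and helper list none was called (median log2 0.06). Of the 9 of the CD8 lineage list, Cd8a, Cd160 and Cd7 were called higher and the chemokine Xcl1 lower (median 0.21), where 0.883% and 4.2% of all genes were. Without myeloid-gene cells only Cd8a was called higher and Xcl1 lower (median 0.35), where 0.965% and 2.44% of genes were. Cd160 (log2 0.43) and Cd7 (0.44) were not called there. Cd4 stood at 265 and 293 CPM in hashtag samples 1 and 2 (1.11-fold, 1.01 to 1.21). Zbtb7b, the factor that commits cells to the CD4 lineage, stood at 50.6 and 53.5 CPM (1.06-fold, 0.861 to 1.29), and Runx3, its CD8 counterpart, at 116 and 121 CPM (1.05-fold, 0.916 to 1.2). Cd8a stood at 8.59, 24.6, 71.0 and 50.5 CPM in hashtag samples 1 to 4, 2.87-fold higher in 2 than in 1 (1.95 to 4.25), with 56.5% of its UMIs of hashtag sample 1 in 5 cells. Cd8b1, the partner chain of Cd8a, stood at 50.4, 68.7, 255 and 135 CPM (1.36-fold, 1.13 to 1.64) and was not called. For both genes hashtag sample 1 was the lowest and hashtag sample 3 the highest. Cd40lg, a ligand by which helper cells activate other cells, stood at 181 and 181 CPM.

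Genes of regulatory T cells leaned lower in hashtag sample 2. Of 20 measured members of the list, 5 were called lower and 0 higher, where 4.2% of all genes were called lower. All 20 had a log2 ratio below 0, with a median of -0.27. Without myeloid-gene cells 7 were called lower (median -0.38), where 2.44% of genes were. Il1r2, a decoy receptor for interleukin 1, stood at 34.2, 12.1, 24.9 and 15 CPM in hashtag samples 1 to 4 (2.81-fold lower in 2 than in 1, 1.95 to 4.17). Ccr8, a chemokine receptor of tumor regulatory T cells, stood at 51.2, 29.2, 38.6 and 45.7 CPM (1.76-fold lower, 1.37 to 2.27), and Ebi3, a subunit of interleukins 27 and 35, at 57.5, 34.4, 51.1 and 52.3 CPM (1.67-fold lower, 1.33 to 2.12). Hashtag sample 2 was the lowest of the 4 for each of these 3 genes. Il1rl1, the receptor for interleukin 33, was 1.97-fold lower (1.28 to 3.14), and Areg, a growth factor for tissue repair, 1.63-fold lower (1.14 to 2.37).

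Foxp3 itself stood at 153, 148, 158 and 174 CPM, a fold of 1.03 lower in hashtag sample 2 (0.919 to 1.16). Cells with a Foxp3 UMI made up 24.3% (21.8 to 26.9) and 18.7% (16.0 to 21.6) of hashtag samples 1 and 2, where the median depths of all cells of the class were 3647 and 3325 UMIs. Thinned to 2000 UMIs the shares were 17.3% (15.1 to 19.8) and 16.1% (13.4 to 19.1), intervals that overlapped, and in the Cd8 class, thinned, 1.70% and 1.29%. In the cells with myeloid genes and no Cd3 UMI, 1 of 120 (0.833%) had a Foxp3 UMI. Receptors of the TNF family that regulatory and activated T cells carry were also lower without a call: Tnfrsf4 (OX40) stood at 624, 419, 467 and 501 CPM (1.49-fold lower, 1.39 to 1.59) and Tnfrsf9 (4-1BB) at 390, 281, 369 and 383 CPM (1.39-fold lower, 1.28 to 1.51). Tnfrsf4 was called without myeloid-gene cells (log2 -0.71).

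The median of this list depended on which cells were counted. Among cells with a Foxp3 UMI it was 0.01 over 20 measured members, with 1 called lower and 1 higher, and among cells without one it was -0.38, with 5 of 15 lower. When myeloid-gene and cycling cells were left out, it was -0.32 in cells with a Foxp3 UMI (3 of 19 lower, where 1.92% of genes were lower and 1.69% higher) and -0.49 in cells without one (5 of 15, where 1.21% were lower and 1.14% higher). Myeloid-gene cells with a Foxp3 UMI numbered 23 in hashtag sample 1 and 5 in hashtag sample 2. Of the 162 cells of hashtag sample 1 with a Ccr8 UMI 24.7% had a Foxp3 UMI, against 24.2% of its other cells. Of the 181 cells with an Ebi3 UMI 49.2% had one, against 19.6% of the others. Cells with these UMIs were deeper, at medians of 5147.5 UMIs with Ccr8 and 3487 without, and 5455 with Ebi3 and 3500.5 without. The shares were not matched for depth. Ebi3 had a log2 ratio of 0.03 among cells with a Foxp3 UMI and -1.05, with a call, among cells without. A cell without a Foxp3 UMI may still express Foxp3 at this depth.

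Of the inhibitory receptors, Pdcd1 and Lag3 were lower in hashtag sample 2. Pdcd1, which encodes PD-1, stood at 140, 89.2, 132 and 86.6 CPM in hashtag samples 1 to 4 (1.57-fold lower in 2 than in 1, 1.36 to 1.82), and hashtag sample 4 was as low as 2. Lag3, a receptor for MHC class II, stood at 44.1, 24.3, 31.1 and 30.7 CPM (1.81-fold lower, 1.38 to 2.41). Both were called without myeloid-gene cells as well, at log2 -0.73 and -0.78, but without cycling cells the ratios were -0.52 and -0.46 and neither was called. In the Cd8 class the same contrast gave 0.31 for each, with no call. Of 14 measured members of the inhibitory receptor list, 3 were called lower and 1, Cd160, higher (median log2 -0.18), beside 4.2% and 0.883% of all genes. Without myeloid-gene cells 2 of 14 were called lower and 0 higher (median -0.21), beside 2.44% and 0.965%. Without cycling cells none of 13 was called, beside 3.25% and 0.905%. Ctla4 stood at 209 and 185 CPM (log2 -0.18) and Tox, a factor of exhausted T cells, at 47.1 and 38.2 CPM (1.23-fold lower, 0.982 to 1.56).

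Most chemokines were called lower in hashtag sample 2, and their UMIs came from few cells. Of 10 measured members 7 were called lower and 0 higher (median log2 -1.23), where 4.2% of all genes were called lower. Without myeloid-gene cells 4 of 6 were (median -1.07), where 2.44% of genes were. Ccl3 stood at 78.3, 9.02, 2.49 and 42.7 CPM in hashtag samples 1 to 4 (8.67-fold lower in 2 than in 1, 5.84 to 13.4), and Ccl4 at 200, 33.0, 3.74 and 114 CPM (6.08-fold lower, 4.93 to 7.58). Both encode inflammatory chemokines that attract leukocytes. Their log2 ratios were -2.57 and -2.44 in all cells, -2.80 and -2.57 without myeloid-gene cells, -1.10 and -1.01 without cycling cells, and -0.97 and -0.66 without either. The 5 cells with most of them held 71.8% of the Ccl3 UMIs and 74.4% of the Ccl4 UMIs of hashtag sample 1, and UMIs were present in 3.61% and 5.28% of its cells. Xcl1, a chemokine that draws cross-presenting dendritic cells, stood at 27.7 and 4.51 CPM, with 70.9% of its UMIs of hashtag sample 1 in 5 cells, and Ccl1 at 43.3 and 21.5 CPM, with 88.8%. Ccl22 had 99 UMIs in hashtag sample 1, all in 5 cells or fewer, and 1 UMI in hashtag sample 2. Ccl5, found in 48.6% and 49.5% of cells, went the other way at 1387 and 1848 CPM (1.33-fold higher, 1.29 to 1.38), without a call. Ccl3, Ccl4 and Xcl1 were called higher in hashtag sample 2 of the Cd8 class, at log2 2.03, 1.92 and 3.05. In Cd4 class cells with a Foxp3 UMI, Ccl4 was also called higher (log2 1.33), where 2.26% of 4826 genes were called higher and 4.66% lower. Of the 6 chemokines measured there, 1 was called higher and 3 lower. When myeloid-gene and cycling cells were left out, 2 were measured in cells with a Foxp3 UMI, with 0 called higher and 1 lower.

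Genes of mitosis leaned lower in hashtag sample 2. Ccnb1, which encodes cyclin B1, stood at 43.0, 20.1, 49.8 and 31.3 CPM in hashtag samples 1 to 4 (2.13-fold lower in 2 than in 1, 1.59 to 2.90). Cenpf, a kinetochore protein, stood at 78.7, 39.2, 95.9 and 56.5 CPM (2.01-fold lower, 1.63 to 2.49), Cdc20 at 54.0, 30.2, 48.6 and 36.7 CPM (1.79-fold lower, 1.40 to 2.30) and Ube2c at 233, 147, 273 and 171 CPM (1.58-fold lower, 1.42 to 1.77). The last 2 belong to the machinery that ends mitosis. Hashtag sample 2 was the lowest of the 4 for each gene. Of 20 measured members of the mitosis list 7 were called lower (median log2 -0.43), where 4.2% of all genes were. Without myeloid-gene cells 19 of 20 were (median -0.64), where 2.44% of genes were. In all cells 19 of the 20 had a log2 ratio below 0, and the other, Aurkb, stood at 42.2 and 42.7 CPM. The list of DNA replication and S phase differed less, with 1 of 20 called lower and a median of -0.11.

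Cycling cells, taken as those with 3 or more UMIs of the mitosis list, were 17.1% of hashtag sample 1 (14.9 to 19.4) and 10.1% of hashtag sample 2 (8.01 to 12.4). They were 17.3% (12.4 to 23.3) and 14.9% (11.5 to 18.8) of hashtag samples 3 and 4. Thinned to 2000 UMIs the shares were 12% (10.1 to 14.2) and 6.57% (4.81 to 8.72) in 1 and 2, intervals that did not overlap. In the Cd8 class the thinned shares were 15.6% (12 to 19.8) and 14.1% (11.7 to 16.8). Of the myeloid-gene cells 17 of 61 and 5 of 12 were cycling, and without them 16.4% and 9.56% of cells were cycling. Without cycling or myeloid-gene cells 4 members of the mitosis list were measured and none was called; these genes define the cells left out.

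**Figure D4:**
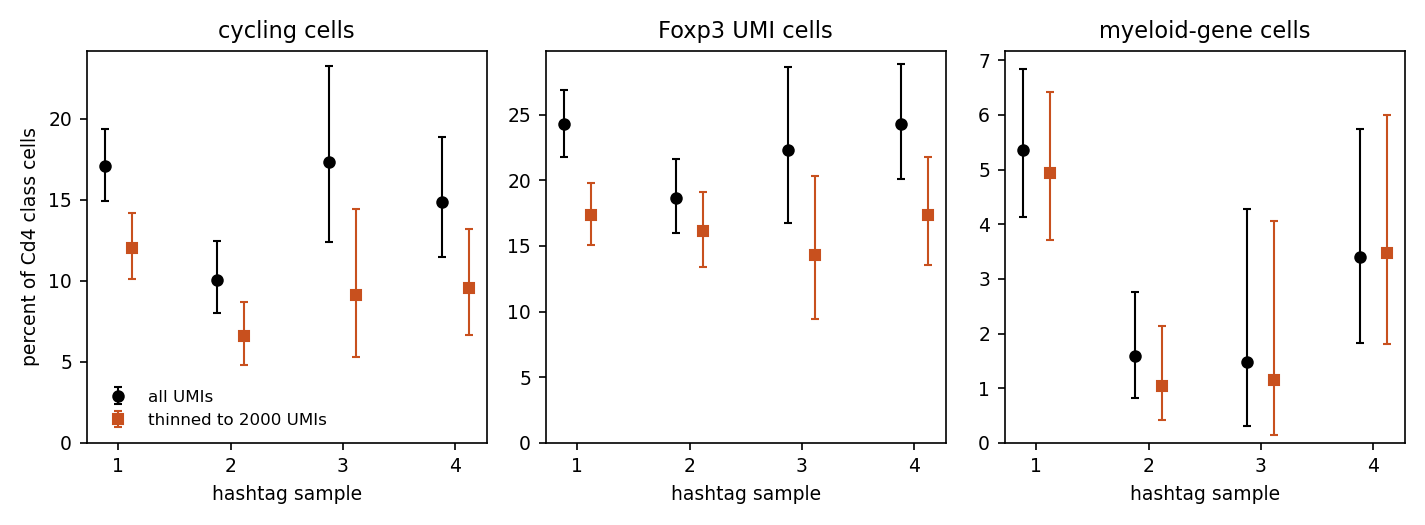
Percent of Cd4 class cells in hashtag samples 1 to 4 that were cycling (left), had a Foxp3 UMI (middle) or were myeloid-gene cells (right), over all UMIs (black) and thinned to 2000 UMIs a cell (orange), with exact binomial 95% intervals. Hashtag sample 2 has the lowest share of cycling cells at both depths, while the thinned shares with a Foxp3 UMI lie between 14.3% and 17.4%.

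Many programs were level between hashtags. None of 23 measured genes of the type I interferon response was called (median log2 -0.01), and Ifit3 stood at 151 and 170 CPM. None of 20 genes each of oxidative phosphorylation, glycolysis and proximal T cell receptor signaling was called, with medians of -0.05, -0.10 and 0.08. None of 13 cytotoxic granule genes was called (median -0.06), with Gzmb, the protease granzyme B, at 675 and 649 CPM. Of 16 genes of Th1 cells 1 was called, Ly6c2, at 476 and 262 CPM, and its log2 ratio went from -0.85 to -0.36 without myeloid-gene cells, where it was not called. The naive and central memory list was not level but leaned higher, with a median of 0.28 and 4 of 13 members below 0. None was called higher. The 1 member called lower was Ccr7, whose UMIs of hashtag sample 1 lay mostly (71.4%) in 5 cells. Il7r, the receptor that naive and memory cells need for survival, stood at 366 and 456 CPM (1.25-fold higher, 1.16 to 1.34).

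The same contrast in the Cd8 class had 387 cells in hashtag sample 1 and 834 in 2. There 481 of 8162 genes (5.89%) were called lower and 168 (2.06%) higher. The Th2, Th17 and Tfh list, with a median of 0.31 in the Cd4 class, had a median of -1.24 over 7 measured genes, and 5 were called lower. Without myeloid-gene cells that median was -0.85 over 4 genes. The regulatory T cell list had medians of -0.27 and -0.34 in the 2 classes. Of the MHC class II and dendritic cell list 9 of 9 were called lower in the Cd8 class (median -1.38). Without myeloid-gene cells 1 of 4 measured members was called lower there (median -0.30), and some members of the list define the cells left out. Of the mitosis list 3 of 20 were called lower there (median -0.26), and 10 of 20 without myeloid-gene cells (median -0.60). Myeloid-gene cells were 17.1% and 8.15% of hashtag samples 1 and 2 in that class. Without them 218 of 7387 genes (2.95%) were lower and 78 (1.06%) higher. Whether the contrasts of the classes differ was not tested.

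T cell receptor V genes also differed between the hashtags. Of cells with at least 2 UMIs of a Trbv gene, 31 of 841 (3.69%, 2.52 to 5.19) in hashtag sample 1 and 51 of 559 (9.12%, 6.87 to 11.8) in hashtag sample 2 had Trbv29 as their main one. In hashtag samples 3 and 4 they were 10 of 156 and 18 of 285. The difference between 1 and 2 lay in cells without a Foxp3 UMI, at 17 of 670 (2.54%, 1.48 to 4.03) and 48 of 456 (10.5%, 7.86 to 13.7). In cells with a Foxp3 UMI it went the other way, at 14 of 171 (8.19%, 4.55 to 13.4) and 3 of 103 (2.91%, 0.605 to 8.28), with intervals that overlapped. Among alpha chains, Trav7-4 was the main Trav gene in 4.16% (2.71 to 6.08) and 10.3% (7.51 to 13.7) of cells. The shares were 3.60% and 11.6% in cells without a Foxp3 UMI, and 5.77% and 5.75% in cells with one. Trav7-4 has a close copy, Trav7d-4, so counting could split reads between them. UMIs of Trav7d-4 went the other way, with 46 in hashtag sample 1 and 6 in 2 (fold 0.242, 0.0846 to 0.569), against 158 and 214 for Trav7-4. Trbv29, Trav7-4 and the pairs below were chosen after their values were seen.

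An alpha chain was found in 42 of the 51 Trbv29 cells of hashtag sample 2, and it was Trav7-4 in 31, against 9 of 21 in hashtag sample 1. Of cells with both chains, 31 of 303 (10.2%, 7.06 to 14.2) in hashtag sample 2 carried Trav7-4 with Trbv29, against 9 of 462 (1.95%, 0.895 to 3.67) in hashtag sample 1. Hashtag samples 3 and 4 had 5 of 78 and 7 of 145. Another pair, Trav5-4 with Trbv13-2, went the other way, with 37 of 462 cells (8.01%, 5.70 to 10.9) in hashtag sample 1 and 10 of 303 (3.30%, 1.59 to 5.99) in hashtag sample 2. A shared pair of V genes does not show that cells are 1 clone, since the junctions were not analysed here. The Trav7-4 and Trbv29 pair was also found outside the Cd4 class under each hashtag number. In hashtag sample 2 it was in 10 of 25 Cd4-identity and 31 of 68 Cd8-identity cells of the class annotated Tdp. In hashtag samples 1, 3 and 4 it was in 0 of 10, 0 of 3 and 1 of 11 Cd4-identity Tdp cells. Among Cd8-identity Tdp cells these numbers were 5 of 24, 4 of 24 and 11 of 63. In the Cd8 class hashtag samples 1 and 2 were alike, at 9 of 134 (6.72%, 3.12 to 12.4) and 20 of 331 (6.04%, 3.73 to 9.18). Hashtag samples 3 and 4 had 4 of 405 and 9 of 219 there.

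**Figure D5:**
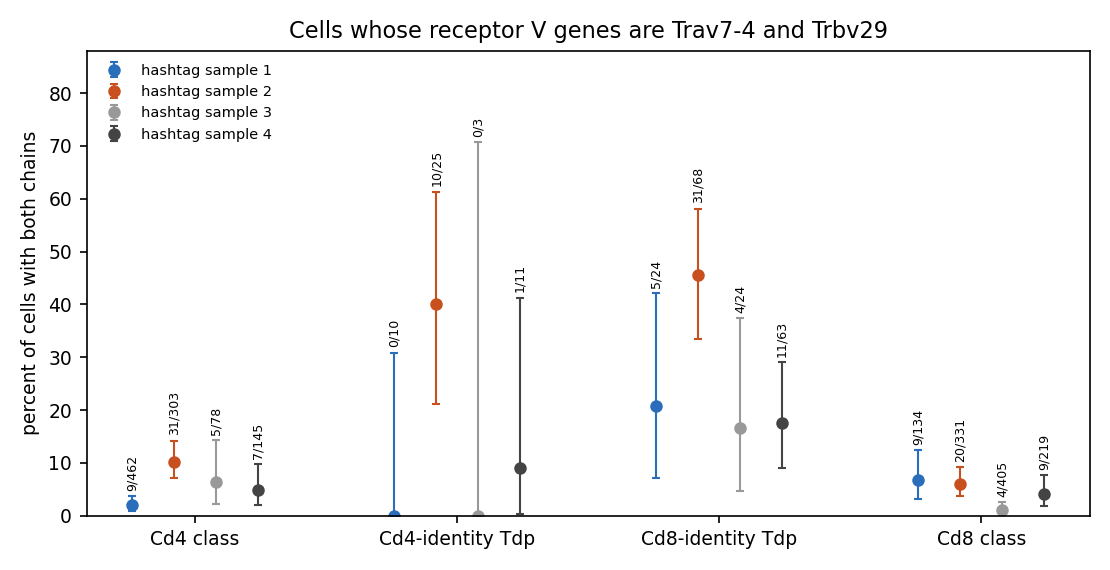
Percent of cells with both receptor chains whose main V genes were Trav7-4 and Trbv29 (vertical), by annotated class (horizontal) and hashtag sample (colour), with exact binomial 95% intervals and the counts of cells printed above. In the Cd4 class hashtag sample 2 reaches 10.2% against 1.95% in hashtag sample 1, and the Tdp classes of hashtag sample 2 reach 40% and 45.6% on few cells. In the Cd8 class hashtag samples 1 and 2 are at 6.72% and 6.04%.

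The cells with this pair differed in expression from the rest of the Cd4 class of hashtag sample 2, without matching for depth. A cell of the pair needed at least 2 UMIs of each chain, whereas the other cells could lack a chain. Without the 2 cells of the pair that were myeloid-gene cells, the 29 remaining held 195265 UMIs and were set against 714 other cells. Of 5970 measured genes 420 (7.04%) were called higher and 401 (6.72%) lower. Gzmk, the protease granzyme K, stood at 461 CPM against 58.0 (7.95-fold higher, 6.06 to 10.4), and Gzma at 394 against 113 CPM (3.48-fold, 2.67 to 4.49). Plac8 stood at 1265 against 286 CPM (4.42-fold, 3.82 to 5.12), and Slamf7 at 154 against 44.4 CPM (3.46-fold, 2.23 to 5.21). Granzyme B did not follow, with Gzmb at 722 against 632 CPM (1.14-fold, 0.955 to 1.36). Of the 31 cells 16 were cycling, and Pclaf, a partner of the replication clamp, stood at 737 against 118 CPM. Their median depth was 6664 UMIs, and 1 had 2 Trbv genes. Over all cells of the class in hashtag sample 2 the median was 3325 UMIs, and 76 of 755 were cycling. Cells of the Trav5-4 and Trbv13-2 pair were also deep and often cycling, with 19 of 37 cycling in hashtag sample 1. Their median depth was 5611 UMIs, and 22 had a Gzmk UMI and 1 a Gzma UMI. The part of depth and cycling in these differences was not tested.

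Genes called lower in these cells included Tnfrsf4, Icos, Cd5, Il7r, Cd40lg and Ifitm1, which were chosen after their values were seen. Tnfrsf4 stood at 25.6 against 435 CPM, Icos at 76.8 against 312, Cd5, a brake on receptor signaling, at 118 against 637, and Il7r at 102 against 489. Cd40lg had 1 UMI there, at 5.12 against 201 CPM, and was found in 1 of the 31 cells. Ifitm1 had 0 UMIs against 428 CPM in the other cells, which by the exact interval is at least 22.6-fold lower. Tmem176b stood at 20.5 against 199 CPM and Foxp3 at 66.6 against 151 CPM. Cd4 UMIs were found in 25 of the 31 cells and Cd8b1 UMIs in 15, with both in 10. Cd4 stood at 200 against 303 CPM, Cd8b1 at 149 against 65.3 CPM and Zbtb7b at 20.5 against 57.2 CPM (4 UMIs in the pair's cells).

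Set against the 20 Cd8 class cells of hashtag sample 2 with the same pair, 31 of 996 measured genes (3.11%) were called higher and 23 (2.31%) lower. Ccl5 stood at 4614 CPM in the Cd4 class cells and 4635 in the Cd8 class cells, Gzmk at 461 and 380, Plac8 at 1265 and 983 and Mki67, a marker of cycling cells, at 302 and 357. Gzma was lower in the Cd4 class cells at 394 against 697 CPM, and Gzmb higher at 722 against 444 CPM. Fewer genes were measured here than in the comparison with other Cd4 class cells.

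Leaving the pair's cells out of both hashtags changed some of the differences between them. Plac8 had a log2 ratio of 0.23 over all cells and -0.06 without them (without myeloid-gene cells it was 0.66, with a call), Gzmk 0.20 and -0.33, and Cd160 0.47 and -0.30, so that its call was lost. Mki67 went from -0.28 to -0.54. Tmem176b went from 0.68 to 0.76, Il17re from 0.64 to 0.72 and Mmp25 from 0.79 to 0.87. Cd7 went from 0.61 to 0.53, which ended the call, and Pdcd1 from -0.63 to -0.56, where it was still called.

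Antibody counts were sparse, with 1019 in the 1137 cells of hashtag sample 1 and 528 in the 755 cells of hashtag sample 2. Of 27 antibodies with at least 20 counts over both, 1 had an interval that left out 1, an antibody to an integrin chain, with 28 counts in each hashtag (1.93-fold higher in 2 after scaling to the totals, 1.10 to 3.38). CD4 had 39 and 21 counts (1.04-fold, 0.581 to 1.81), GITR, the product of Tnfrsf18, 31 and 10 (fold 0.623, 0.272 to 1.30) and OX-40, the product of Tnfrsf4, 15 and 5 (fold 0.643, 0.183 to 1.86). CD45.1, the congenic marker, had 33 and 24 counts (1.4-fold, 0.794 to 2.45). For CD4, GITR and OX-40 no difference was detectable at this depth.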

How the data were processed

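Gene expression was read from 1 droplet library of pooled, hashtagged T cells. The authors deposited unnormalized UMI counts (14811 genes, 5564 cells), raw counts for 138 antibodies, and a cell annotation with hashtag number, identity and class. The submitters' processing notes list mm10, Seurat 3.2.3 and Cell Ranger 3.1.0; their roles, the cell filters and the hashtag and class calls are not given in the sources used here. The hashtag of each cell was taken from that annotation; reads or counts of the hashtag and receptor libraries were not used here. Some genes and 1 motif are not reported here.

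Counts were summed per class and hashtag and scaled to CPM without 117 receptor and immunoglobulin genes. Log2 ratios used a pseudocount of 5 CPM, folds none. Intervals are exact: Poisson for levels, conditional binomial for folds, Clopper-Pearson for shares. The intervals cover counting error only. A gene was measured with 50 UMIs over both hashtags. Doublets were not removed. A receptor chain needed 2 UMIs of a V gene, and the V gene with most UMIs was taken. The ratio step was tested on simulated data.

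The rule for named genes took, from called genes with 20 CPM, 100 UMIs and a UMI in 5% of cells of the higher hashtag, 15 at each end of the log2 ratio, then 6 lineage genes, and the ends and called members of 22 program and 12 cell type lists; the text names a part of them. Ctla4, Gzmb, Gzmk, Icos, Mki67, Plac8, Tmem176a and the other genes of the receptor pair's profile were chosen after their values were seen. The members and lists were chosen with earlier results of these data known. The B cell, gamma delta T cell, melanoma, neutrophil, fibroblast or endothelial and erythroid or platelet lists had at most 1 measured member and none called; of the NK cell list 1 of 2, of the plasmacytoid dendritic cell list 2 of 5 and of the CD8 T cell list 3 of 7 were called, and of the CD4 T cell list 0 of 7. Python 3.11.15, scipy 1.17.1 and edgeR 4.0.16 (TMM scaling only) were used.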

Additional observations from a re-analysis of the deposited data

How the results depend on the processing

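Of 77 genes called higher and 366 lower, the counts moved by more than 1.5 times under some settings. Higher calls were 131 with the mean of per-cell CPM, 7 with a minimum of 200 UMIs and 9 with a fold of at least 2. Lower calls were 164 with each cell thinned to 2000 UMIs, 107 with the minimum of 200 UMIs, 204 with the fold of 2, 225 in cells with a Foxp3 UMI only, 118 without cells that held UMIs of other cell types, 205 without myeloid-gene cells and 105 without myeloid-gene or cycling cells. The last 2 settings, and leaving out cells with Trav7-4 and Trbv29, were chosen after seeing the data. Fewer cells or genes entered most of these settings. The share of calls that were higher was 17.4% and became 36.6% without cells that held UMIs of other cell types, 32.6% in cells with a Foxp3 UMI, 28.3% without myeloid-gene cells, 39.3% without myeloid-gene or cycling cells, 28.4% with thinning, 6.14% with the minimum of 200 UMIs and 4.22% with the fold of 2. TMM scaling gave 80 higher and 358 lower. Of 40 genes named here and called in all cells, 40 kept their call with TMM scaling and 29 with thinning. The call was kept by 26 without cycling cells, 28 without myeloid-gene cells and 19 without either. It was kept by 17 without cells that held UMIs of other cell types and by 11 in cells with a Foxp3 UMI only.

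The share with a Foxp3 UMI was 17.3% in hashtag sample 1 with thinning, and without cells that held UMIs of other cell types 10.3% and 9.67% in hashtag samples 1 and 2. Cycling shares were 12% and 6.57% with thinning, and 10.6% and 6.59% without those cells.

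Log2 ratios changed sign as follows, and the cause was not tested. Without cells that held UMIs of other cell types the macrophage list median was 0.14, the NK cell list 1.09, Areg 0.034, Cst3 0.057, H2-Aa 0.10, H2-Eb1 0.48, Il1r2 0.094 and Tyrobp 0.36. Without myeloid-gene cells the lists gave 0.15 and 0.34, Ccl22 0.10, Fcer1g 0.38, H2-Eb1 0.41 and Tyrobp 0.21. Without myeloid-gene or cycling cells the NK cell list gave 0.58, Ccl22 0.12, Cdc20 0.29, Cenpf 0.14, Fcer1g 0.47, H2-Aa 0.076, H2-Eb1 0.11, Tyrobp 0.10 and Ube2c 0.20. Without cycling cells Cdc20 was 0.31, Cenpf 0.056 and Ube2c 0.27. In cells with a Foxp3 UMI Apol7e was -0.44, Ccl4 1.33, Cd160 -0.48, Ebi3 0.032, Eif2ak3 -0.082 and Tmem176b -0.70. Areg was 0.24 in cells with a Cd4 UMI, Ccl1 0.034 without cells with 2 Trbv genes, Ccl22 0.12 without cells with a Foxp3 UMI and Cd160 -0.30 without cells with Trav7-4 and Trbv29.

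No paired analysis was possible because each hashtag is 1 sample of 1 pool. No replicate was left out for the same reason, and intervals do not cover differences between mice, sorts or hashtag labelling. Genes under 50 UMIs over both hashtags were not measured.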
